A study of Nicotiana tabacum with 18 samples.

Results

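The mid-parent deviation of a hybrid is the distance between its expression and the average of its parents, and this deviation was compared gene by gene between 2 tobacco hybrids. For each gene, the mean of V and G9 was subtracted from VG9 and the mean of K and G8 from KG8, on a scale of log2(FPKM + 1), and the second deviation was then subtracted from the first. FPKM is the number of sequenced fragments of a gene divided by its transcript length and by the size of the library, so levels of different genes can be set side by side. A positive difference says that VG9 stood higher against its own parents than KG8 did against its own. A gene entered the comparison when its average FPKM reached 1 in 1 or more genotypes, which gave 36573 of the 69500 genes in the table.

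VG9 is the hybrid Va116×GDH94, with the parents V (Va116) and G9 (GDH94), and KG8 is the hybrid K326×GDH88, with the parents K (K326) and G8 (GDH88). All 6 genotypes were Nicotiana tabacum plants from a field trial, and leaves were taken 45 days after transplanting, with 3 libraries per genotype and 18 in all. No treatment, transgene or deletion is given for any genotype, and the 2 crosses have no parent and no library in common. Leaves of several plants and leaf positions were mixed in each sample, so in these bulk libraries fewer cells of a type and less RNA per cell cannot be told apart. All reads were aligned to the genome of K326, which is a parent of KG8 and of no plant in the Va116×GDH94 cross.

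Heterosis is the superiority of a hybrid over its parents in traits such as biomass. At the level of RNA, a gene whose hybrid level equals the parental average is called additive, and a gene that leaves this average is non-additive. In a leaf, the chloroplast proteins that catch light and the enzyme Rubisco, which fixes CO2, take up much of the nitrogen of the cell, while histones and ribosomal proteins are made mostly where cells divide and grow.

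The 18 libraries had similar totals, with summed FPKM from 887628 in a K library to 1062588 in a KG8 library and 41974 to 44138 genes above 0. No libraries were identical. Replicates spread most in KG8, with a median SD over genes of 0.152 on the log2 scale, and least in G9, with 0.0772. Genes that appeared or vanished in a hybrid were counted as a check of the labels, with on meaning at least 5 FPKM in all 3 libraries of a genotype and off meaning under 0.5 FPKM in all 3. VG9 was on for 9 genes that were off in V and in G9, and off for 1 gene that was on in both and for 20 genes that were on in 1 of them. In KG8 these counts were 0, 0 and 1. Genes on in 1 parent and off in the other numbered 81 between V and G9 and 14 between K and G8, so the hybrid was off in 20 of 81 and in 1 of 14. If the V or G9 plants sequenced were not those crossed to give VG9, the mean of V and G9 would not be the parental mean of VG9, and whether they were was not tested. Without the 31 genes, 30 of them among the calls described next, the number of calls was 1060.

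**Figure D1:**
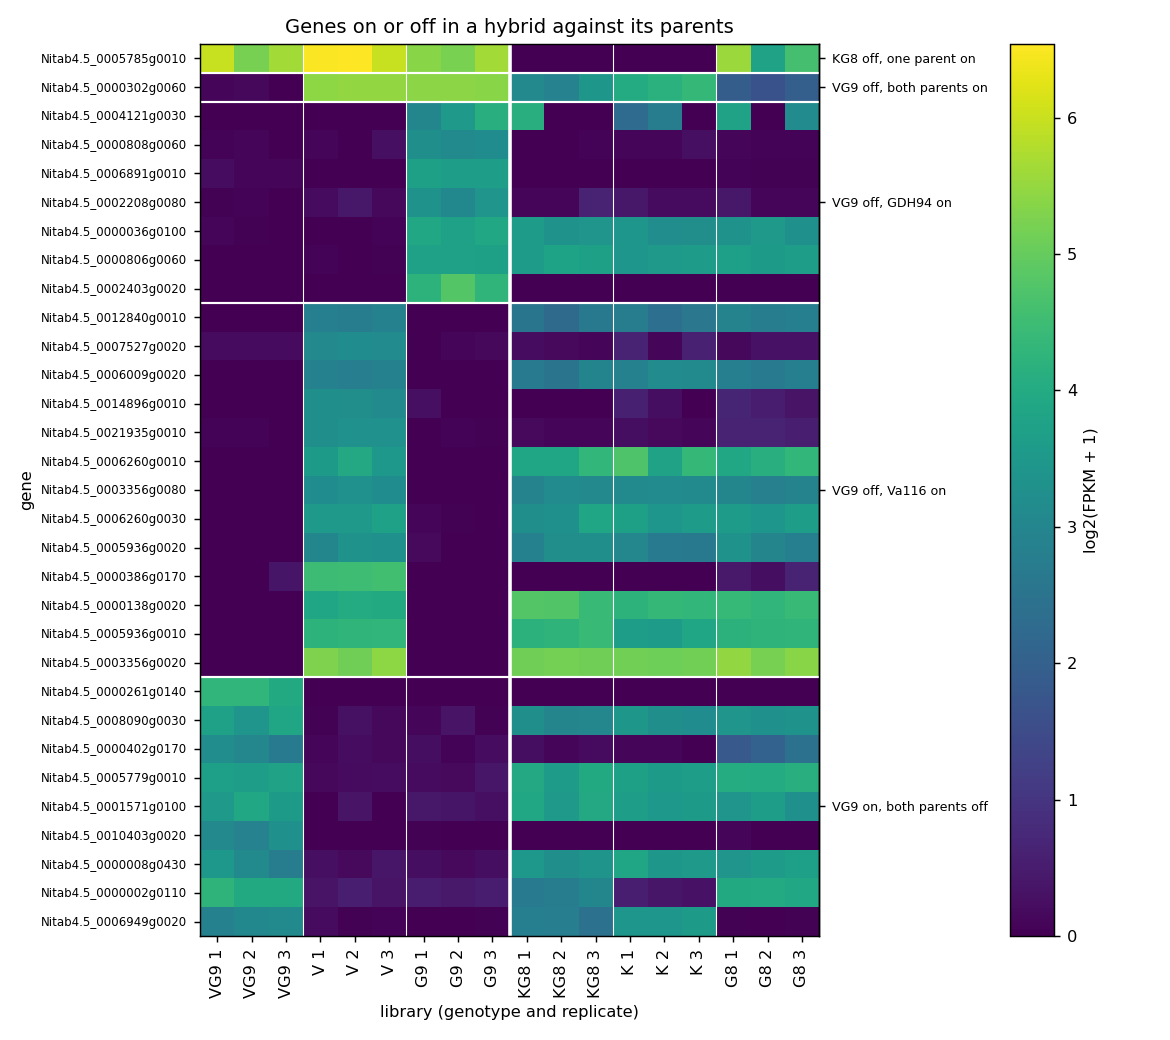
Level of the 31 genes that were on or off in a hybrid against its parents, as log2(FPKM + 1) from dark (0) to yellow, with a row per gene and a column per library. In the lowest block of 9 genes VG9 was on while V and G9 were off, and 4 of these 9 were on in KG8, K and G8 as well.

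The deviation differed between the hybrids in 1090 genes, which is 2.98% of those tested. A gene was called when its adjusted p from limma was under 0.05 and its difference was at least 1 on the log2 scale. VG9 was the higher hybrid, relative to its parents, in 563 genes (1.54% of those tested) and the lower in 527 (1.44%). Among the called genes the median difference was 1.27 in the first group and -1.29 in the second, and the extremes were 4.19 and -9.65. By the adjusted p alone, without a limit on size, 11810 genes passed (32.3%), of which 8278 were higher in VG9 (22.6%) and 3532 lower (9.66%). The median difference over all tested genes was 0.12, since the median deviation was 0.0051 in VG9 and -0.098 in KG8. When the libraries were rescaled by median ratios this overall median became 0.011, and the called genes then numbered 411 higher and 695 lower, so the split between the directions depends on the scaling. With quantile normalization there were 432 higher and 613 lower. Of the 1090 calls, 938 were also called after median-ratio scaling and 923 after quantile normalization.

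**Figure D2:**
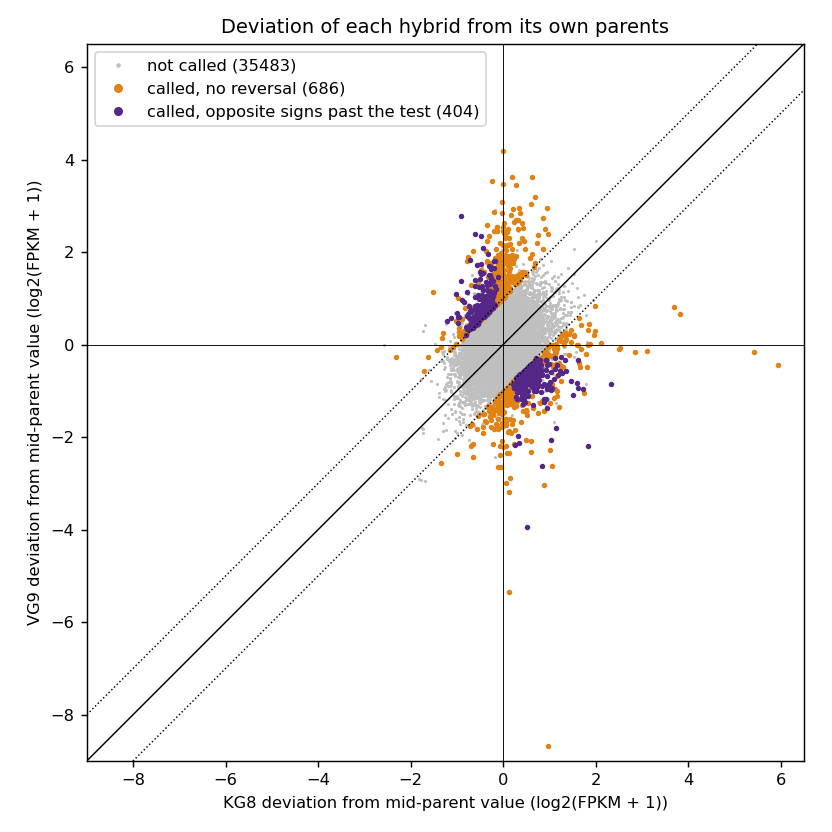
Deviation of VG9 from its mid-parent value (vertical axis) against that of KG8 (horizontal axis), both in log2(FPKM + 1), with a point per tested gene, a solid line of equal deviations and dotted lines at a difference of 1. Called genes lie outside the dotted lines, 404 of them with deviations of opposite sign that each passed the test, and the lowest point is the Rubisco small chain gene at -8.68 in VG9.

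A called difference can come from either hybrid. VG9 held the larger deviation of the pair in 837 of the 1090 called genes, or 76.8%, against 51.1% of all tested genes. In 291 of the 563 higher genes VG9 alone left its mid-parent value at an adjusted p under 0.05, in 25 KG8 alone did, in 200 both did in opposite directions, in 39 both did in the same direction, and in 8 neither did. The 527 lower genes held 205 with VG9 alone, 85 with KG8 alone, 204 in opposite directions, 16 in the same direction and 17 with neither. Parents differed more often among called genes than among all. V and G9 differed by 1 or more in 350 called genes (32.1%, against 4.6% of tested genes), K and G8 in 125 (11.5%, against 2.05%), and in 656 (60.2%, against 93.9%) neither pair did. The 2 hybrids themselves differed by 1 or more in 546 called genes (50.1%, against 3.14% of tested genes) and by less in the other 544. Taken on the arithmetic mean of the parents in place of the mean of logs, 983 of the 1090 differences kept their sign and stayed at 1 or more, and the sign turned in 2, Nitab4.5_0002587g0040 and Nitab4.5_0027235g0010. Over all tested genes the deviations of the 2 hybrids had a Pearson r of 0.28 and a Spearman rho of 0.32, a description over 36573 genes that share 18 libraries.

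Reversals were counted in both directions. A gene was said to reverse when it was called and each hybrid left its mid-parent value at an adjusted p under 0.05, with opposite signs. VG9 was above and KG8 below in 200 genes (0.547% of those tested), and VG9 was below and KG8 above in 204 (0.558%). After median-ratio scaling these shares were 0.26% and 0.891%, and with quantile normalization 0.317% and 0.692%. For comparison, at the adjusted p alone VG9 was above its mid-parent value in 22.8% of tested genes and below it in 19.2%, and KG8 was above in 12.9% and below in 29.7%. With a deviation of at least 1 required as well, VG9 was above in 571 genes (1.56%) and below in 401 (1.1%), and KG8 was above in 215 (0.588%) and below in 115 (0.314%).

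Gene functions below come from domain descriptions in the study's supplement, which cover genes the study had called between VG9 and V and, in the portion at hand, between VG9 and G9. That portion held 1881 genes called against V but only 197 against G9, a list that was cut short. The described genes are thus mostly those called between VG9 and V. Of 2031 such genes 1770 were tested and 440 of these (24.9%) were called here, against 2.98% of all tested genes. A family's share of calls is therefore to be set beside 24.9%. Among the 1770 genes, 106 reversed and had a description other than Unknown, and a family's count of reversals is to be set beside that. The families formed from these descriptions were therefore chosen on the libraries of the Va116×GDH94 cross, and their deviation in VG9 is no independent evidence of direction. Their deviation in KG8 comes from libraries that had no part in the study's calls. Those libraries did enter the filter on average FPKM, and some genes were left out of families after their values were seen.

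Several genes of the photosynthetic apparatus stood far above the parents in VG9 and much less so, or not at all, in KG8. The study's primer table names 10 genes, and NtLhcb1, an antenna protein that binds chlorophyll around photosystem II, gave one of the clearest differences. NtLhcb1 (Nitab4.5_0002814g0050) had 71.3, 70.5 and 75.3 FPKM in VG9, 17.3, 17.4 and 17.9 in V and 9.55, 12 and 11.1 in G9. It had 14.4, 19.3 and 19.5 FPKM in KG8, 10.7, 10.8 and 9.36 in K and 17.7, 15.9 and 16.3 in G8. All 3 VG9 libraries lay above every other library, while those of KG8 overlapped those of G8. The deviation was 2.31 in VG9 and 0.40 in KG8, where it passed its test as well (adjusted p = 0.0018, limma). The difference was 1.91 ± 0.12 (SE, adjusted p = 1.4e-08, limma, n = 3 libraries per genotype). NtLhcb2 (Nitab4.5_0005511g0010), another antenna gene, had a different pattern. It had 71.9, 82.96 and 89.8 FPKM in VG9, 46.6, 46.3 and 48.3 in V and 29.3, 25.6 and 27.8 in G9, and 76.7, 79.97 and 75.4 in KG8, 36.9, 40.99 and 38.9 in K and 62.4, 58.3 and 59.3 in G8. Each hybrid was above all 6 libraries of its parents, by 1.15 and 0.67, and the difference of 0.48 ± 0.09 stayed under the limit of 1 (adjusted p = 6.5e-04, limma). The qRT-PCR primers that the study assigned to the primer-table genes described at length are printed here, 5′ to 3′ and in lower case since no base is singled out, because they say which transcript each name stands for.
NtLhcb1 forward: tgggacactgctggacttt
NtLhcb1 reverse: gcaacacggtaaccctcaa
NtLhcb2 forward: tctccgagcaaactccatc
NtLhcb2 reverse: gcctccgccaactctgtat
NtPsbA forward: tgctgctcctccagtagaca
NtPsbA reverse: aatccaaggtcgcataccc
NtPsb forward: tattgccttcattgctgctc
NtPsb reverse: tcatcaacggatgccactt
NtrbcL forward: tatcgccaacgagaaatcg
NtrbcL reverse: cctgaagccacgggtaaaa
NtSDHB forward: tcttatcttggtcccgctgc
NtSDHB reverse: gtcaaggcgctcctgagtat

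Reaction centre genes showed the same contrast at lower levels. NtPsbA (Nitab4.5_0008665g0010) carries the domain of D1, the core protein of photosystem II, and had 7.8, 5.75 and 3.72 FPKM in VG9, 0.85, 1.57 and 1.33 in V and 1.03, 0.78 and 0.86 in G9. KG8 held 0.11, 0.17 and 0.35 FPKM, K 0.26, 0.21 and 0.04 and G8 0.43, 0.58 and 0.44, so in that cross the gene was barely detected and the groups overlapped. Its difference was 1.80 ± 0.22 (adjusted p = 2.3e-05, limma). NtPsb (Nitab4.5_0003961g0020), with a reaction centre L/M domain, had 35.6, 27.04 and 22.03 FPKM in VG9 and 4.98 to 10.8 in its parents, against 5.1, 5.1 and 2.86 in KG8 and 2.80 to 10.4 in K and G8. The deviations were 1.80 and -0.35, with a difference of 2.15 ± 0.32 (adjusted p = 1.1e-04, limma). A further D1 gene, Nitab4.5_0001439g0110, had a difference of 2.06 ± 0.27 (adjusted p = 3.2e-05, limma), with 22.8, 17 and 11.1 FPKM in VG9 and at most 4.15 FPKM in each of the other 15 libraries. NtPsbA, NtPsb and this gene each fell from VG9 replicate 1 to replicate 3, as did the Rubisco large chain sum given below. NtLhcb1 did not fall in this way. Genes that move together across libraries are not separate pieces of evidence. NtatpF (Nitab4.5_0003634g0020), named for a subunit of the chloroplast ATP synthase, was called at 1.03 ± 0.28 (adjusted p = 0.011, limma), with 20.8, 20.5 and 34.97 FPKM in VG9 and 10.7, 19.2 and 13.2 in KG8. That call rested on several single libraries. The difference fell under 1 without VG9 replicate 3 (0.78), V replicate 3 (0.97), G9 replicate 1 (0.94), KG8 replicate 1 (0.85), KG8 replicate 3 (0.99), K replicate 2 (0.96) or G8 replicate 3 (0.98).

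Of the 8 tested genes described with light reactions, 4 were called higher in VG9 and none lower, with a median difference of 1.13 beside 0.12 over all tested genes. Their deviation in KG8 had a median of 0.30, and 5 of the 8 were above the mid-parent value there by the adjusted p. The others that were not called included a chlorophyll a/b binding protein, Nitab4.5_0000592g0360, with deviations of 1.65 in VG9 and 1.41 in KG8, and a PsbP gene of the oxygen-evolving complex, Nitab4.5_0003160g0050, with -0.41 and 0.28. The antenna genes thus held both kinds of pattern, with NtLhcb1 above its parents mainly in VG9 and Nitab4.5_0000592g0360 above its parents in both hybrids.

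Rubisco is built of a large chain, encoded by rbcL in the chloroplast genome, and a small chain from nuclear genes. Of 5 tested genes described as Rubisco large chain, 4 were called higher in VG9 and none lower, with a median difference of 1.77. The median deviation in KG8 was -0.12, and none of the 5 left the mid-parent value there by the adjusted p. Summed over the 5 genes, VG9 had 115.8, 81.3 and 54.0 FPKM, V had 19.8, 23.7 and 21.6, and G9 had 18.8, 27.9 and 23.1. The sums in the other cross were 9.49, 10.5 and 11.8 FPKM in KG8, 16.9, 13.0 and 8.89 in K, and 12.7, 7 and 13.0 in G8. VG9 lay above all other libraries with a wide spread of its own, and the groups of the K326×GDH88 cross overlapped. NtrbcL (Nitab4.5_0000841g0020) had 13.7, 13.6 and 7.66 FPKM in VG9 and at most 5.54 in its parents, with a difference of 1.23 ± 0.36 (adjusted p = 0.016, limma). The largest of the 5, Nitab4.5_0002755g0110, differed by 2.01 ± 0.30 (adjusted p = 1.2e-04, limma), with 55.97, 41.6 and 29.4 FPKM in VG9 and 4.9, 5.47 and 5.2 in KG8. D1 and the Rubisco large chain are chloroplast genes, and the genes named here are models in the assembled genome that resemble each other, so how fragments were divided among such copies is uncertain. Of 6 tested organelle-type respiratory and NDH chain genes, 4 were higher in VG9 and none lower by the adjusted p alone. The median difference of the 6 was 0.75. The 4 higher genes averaged 1.02 to 1.59 FPKM in VG9 and at most 0.57 in any other genotype. They passed the filter on average FPKM through VG9 alone, so their direction is no independent evidence. The 6 genes held 1 call, the cytochrome c oxidase subunit I gene Nitab4.5_0001127g0230 at 1.04 ± 0.27 (adjusted p = 0.0085, limma). It was no longer called without VG9 replicate 1 (0.71) or V replicate 2 (1.00, just under the limit).

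**Figure D3:**
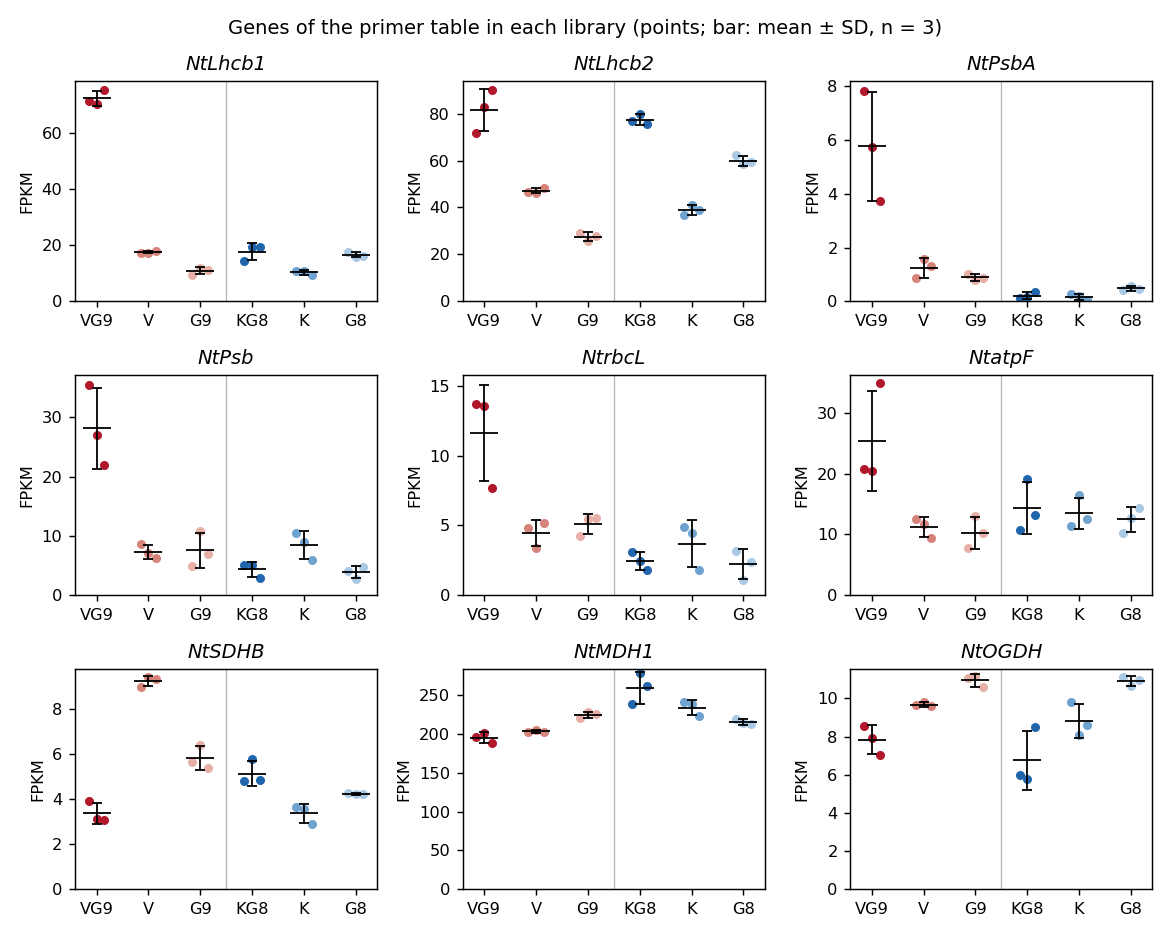
FPKM of 9 genes of the primer table in each of the 18 libraries (points), with the mean and SD of the 3 libraries per genotype (bars), VG9 and its parents left of the grey line and KG8 and its parents right of it. NtLhcb1 was at 70.5 to 75.3 FPKM in VG9 and at most 19.5 elsewhere, while NtSDHB was low in VG9 (3.06 to 3.88) and high in V (8.96 to 9.38).

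Enzymes of the tricarboxylic acid cycle, which oxidises acetyl units in the mitochondrion, gave 1 call among the 3 genes listed, and it was lower in VG9. NtSDHB (Nitab4.5_0002158g0230), the iron-sulphur subunit of succinate dehydrogenase, had 3.88, 3.11 and 3.06 FPKM in VG9, 8.96, 9.38 and 9.31 in V and 5.65, 6.39 and 5.36 in G9. In the other cross it had 4.79, 5.75 and 4.81 FPKM in KG8, 3.64, 3.56 and 2.87 in K and 4.26, 4.21 and 4.19 in G8. VG9 was below every library of its parents and KG8 above every library of its own. The gene reversed, with deviations of -0.94 and 0.36 and a difference of -1.30 ± 0.12 (adjusted p = 6.8e-07, limma). NtMDH1 (Nitab4.5_0000044g0330), a malate dehydrogenase, differed by -0.34 ± 0.07 (adjusted p = 0.0011, limma), below the limit of size, on levels of 188 to 279 FPKM in all 18 libraries. NtOGDH (Nitab4.5_0009327g0010), a subunit of the oxoglutarate dehydrogenase complex, had deviations of -0.36 and -0.50 with a difference of 0.14 ± 0.13 (adjusted p = 0.43, limma), whose sign turned to -0.0026 with quantile normalization. NtLR25 (Nitab4.5_0002995g0050), listed in the same primer table, had 126, 161 and 177 FPKM in VG9 and 188, 239 and 163 in KG8, with a difference of -0.46 ± 0.15 (adjusted p = 0.026, limma).

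The largest difference of all belonged to a gene of the Rubisco small chain. Nitab4.5_0002207g0050 had 1.82, 12.7 and 1.27 FPKM in VG9, 1609, 1546 and 1369 in V and 2601, 1482 and 2769.6 in G9. It had 23870.0, 17721 and 25808 FPKM in KG8, 10732, 8572 and 14947 in K and 10605, 11294 and 12679 in G8, so it was near 0 in VG9 and higher in the other cross than in V or G9. VG9 lay under all libraries of its parents and KG8 over all libraries of its own. The deviations were -8.68 and 0.97, and the difference was -9.65 ± 0.56 (adjusted p = 4.4e-09, limma). The deviation of KG8 alone did not pass its test (adjusted p = 0.059, limma), so the gene was not counted as reversing. It belongs to a family of similar genes whose fragments may be divided unevenly.

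A pair of genes of the CAP superfamily, to which the pathogenesis-related protein PR-1 belongs, owed their difference to KG8. Nitab4.5_0003771g0010 had 633, 531 and 168 FPKM in KG8, 4.57, 9.68 and 47.8 in K and 2.76, 1.27 and 1.34 in G8. In the other cross it had 12.6, 8.69 and 5.78 FPKM in VG9, 0.8, 1.43 and 1.38 in V and 79.3, 78.03 and 76.4 in G9. KG8 was above every library of its parents, though its replicate 3 was far lower than the other two and replicate 3 of K far higher than the rest of K. Its difference was -6.40 ± 0.72 (adjusted p = 7.9e-06, limma), from a deviation of 5.95 in KG8 and -0.45 in VG9. Nitab4.5_0004861g0030 followed the same course, with 204, 149.6 and 52.5 FPKM in KG8, 1.57, 1.79 and 13.3 in K and at most 0.87 in G8, and a difference of -5.57 ± 0.63 (adjusted p = 9.1e-06, limma). An aminotransferase gene described as DapL, an enzyme of lysine synthesis, showed the opposite source. Nitab4.5_0000302g0060 had 42.2, 43.8 and 43.6 FPKM in V and 41.3, 41.1 and 40.8 in G9 but 0.08, 0.11 and 0 in VG9. In KG8 it had 7.38, 6.44 and 10.1 FPKM, between 15.4, 17.1 and 19.4 in K and 2.78, 2.14 and 2.96 in G8. The difference was -5.47 ± 0.15 (adjusted p = 2.0e-12, limma).

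The 5 highest differences came from genes that were on in VG9 and stayed under 1 FPKM in every V and G9 library. An ATP-grasp domain gene, Nitab4.5_0000261g0140, had 18.8, 18.7 and 14.6 FPKM in VG9 and was listed at 0 in the other 15 libraries, a difference of 4.19 ± 0.13 (adjusted p = 9.3e-12, limma). A cyclophilin-type isomerase gene, of a family that helps proteins fold, was high in VG9 alone as well, though not quite off elsewhere. Nitab4.5_0001150g0020 had 19.7, 20.3 and 20.5 FPKM in VG9 and at most 0.93 in any other library, with a difference of 3.45 ± 0.12 (adjusted p = 9.3e-12, limma). Others were absent from V and G9 only. Nitab4.5_0008090g0030, described as Unknown, had 12.35, 9.72 and 13.69 FPKM in VG9 and at most 0.27 in V and G9. KG8, K and G8 held 6.87 to 10 FPKM of it, and the difference was 3.76 ± 0.15 (adjusted p = 6.0e-11, limma). A glycoside hydrolase gene, Nitab4.5_0005779g0010, had 11.9, 11.4 and 12.7 FPKM in VG9 and at most 0.31 in V and G9, while KG8, K and G8 held 10.9 to 16.5 FPKM. Its difference of 3.48 ± 0.11 (adjusted p = 9.3e-12, limma) therefore set a VG9 level like that of the other cross against parents without the transcript. A serine carboxypeptidase gene, Nitab4.5_0001571g0100, had the same form, with 10.6, 14.2 and 10.9 FPKM in VG9, at most 0.33 in V and G9, 8.77 to 14.5 in the other cross, and a difference of 3.15 ± 0.17 (adjusted p = 1.3e-09, limma). On this scale a difference understates the change of genes with low FPKM, since 1 was added before the logarithm.

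Histones, the proteins that package DNA, formed the family with the lowest median difference. Of 26 tested histone genes, 16 were called lower in VG9 and 1 higher, with a median difference of -1.32, and 14 of the 26 reversed. In VG9, 21 were below and 2 above the mid-parent value by the adjusted p, with a median deviation of -0.80. In KG8, 20 were above and none below, with a median of 0.46 and a range from 0.06 to 1.05. Summed over the 26 genes, VG9 had 932, 1048 and 1024 FPKM, V had 1458, 1485 and 1507, and G9 had 1733, 1731 and 1753. KG8 had 1878, 2307 and 1830 FPKM, K had 1504, 1499 and 1366, and G8 had 1436, 1465 and 1445. VG9 was thus below and KG8 above all libraries of their parents, with no overlap in either cross. After median-ratio scaling the median difference was -1.44, with 18 genes lower and 0 higher, and KG8 was above its mid-parent value in 23.

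The change was spread over the core histones. Among 9 histone H3 genes 7 were called lower, with differences from -3.68 to -0.61, and among 10 histone H4 genes 6 were called lower, with differences from -1.94 to 2.00. Histone H2B gave 2 lower and 1 higher of 5, and histone H2A gave 1 lower of 2. The H3 gene Nitab4.5_0000140g0010 had 14.6, 13.7 and 18.2 FPKM in VG9, 26.5, 27.9 and 37.2 in V and 39.4, 44.01 and 46.8 in G9. In the other cross it had 48.9, 52.1 and 39.4 FPKM in KG8, 32.4, 27.3 and 28.8 in K and 20.8, 22.9 and 15.9 in G8. Its deviations of -1.18 and 0.92 differed by -2.10 ± 0.18 (adjusted p = 4.9e-07, limma). For the H4 gene Nitab4.5_0001831g0110 the values were 22.3, 29.3 and 18.4 FPKM in VG9, 49.4 to 65.1 in V and G9, 80.3, 79.2 and 68.3 in KG8 and 39.5 to 60.05 in K and G8, with a difference of -1.94 ± 0.14 (adjusted p = 8.3e-08, limma). In both genes VG9 was below, and KG8 above, every library of the parents. The lowest H3 gene, Nitab4.5_0005909g0020, was uneven among replicates, with 0, 5.88 and 13.3 FPKM in VG9 and a difference of -3.68 ± 0.76 (adjusted p = 0.0017, limma). The 1 higher call, the H2B gene Nitab4.5_0027235g0010, depended on how the parents were averaged. VG9 had a mean of 24.1 FPKM, between 53.7 in V and 0 in G9, and KG8 had 94.4, over 61.3 in K and 54.8 in G8. The difference was 1.07 against the mean of logs and -0.84 against the arithmetic mean of the parents. Histone genes are many and alike, so values of single copies are less certain than the sum.

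Ribosomal protein genes had differences in the same direction, by less. Of 17 tested, 5 were called lower and none higher, 4 reversed, and the median difference was -0.76. The called share was close to the 24.9% of the 1770 tested genes of the supplement. VG9 was below the mid-parent value in 13 and above in 1, while KG8 was above in 6 and below in 1. The counts in KG8 depended on the scaling. They were 8 above and 0 below after median-ratio scaling, 3 and 3 with quantile normalization and 4 and 4 with equal totals. Summed over the 17 genes, VG9 had 1597, 1538 and 1751 FPKM, V had 2507, 2510.1 and 2373, and G9 had 2221, 2316 and 2367. KG8 had 2335, 2586 and 2347 FPKM, K had 1623, 1806 and 1829, and G8 had 2223, 2385 and 2280.5. The sum in VG9 was below all its parents' libraries, whereas KG8 overlapped G8. Among the called genes, the S30 gene Nitab4.5_0000540g0120 had 235, 208 and 209.8 FPKM in VG9 and 370.2 to 479.5 in V and G9, against 467, 422 and 479 in KG8 and 245 to 422 in K and G8. It reversed, with a difference of -1.31 ± 0.13 (adjusted p = 2.8e-06, limma). The S19e gene Nitab4.5_0001961g0030 fell in VG9 alone, with deviations of -1.18 and 0.02 and a difference of -1.20 ± 0.09 (adjusted p = 8.0e-08, limma). Kinesins, motors that move along microtubules and in part serve cell division, held no call among 9 tested, with 7 lower and 1 higher by the adjusted p alone and a median difference of -0.56. After median-ratio scaling 1 kinesin was called lower.

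**Figure D4:**
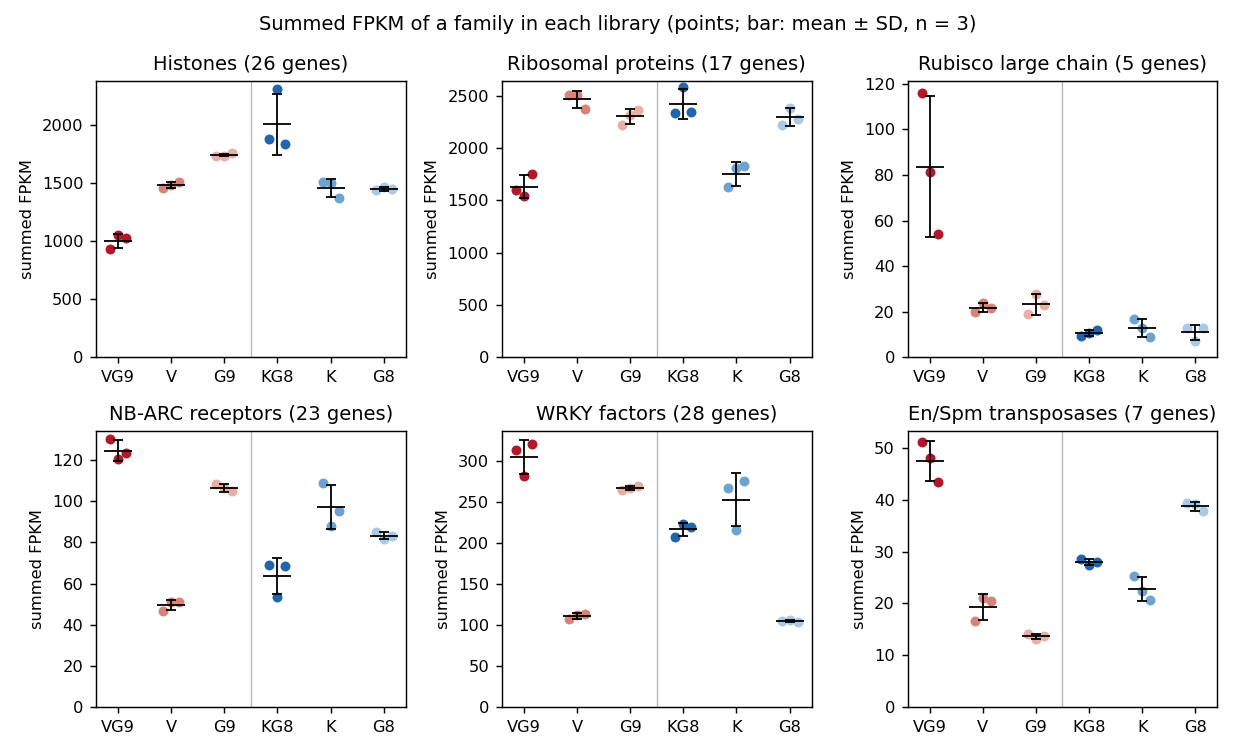
Summed FPKM of the tested members of 6 families in each library (points), with the mean and SD of the 3 libraries per genotype (bars). In the histone panel VG9 (932 to 1048 FPKM) lay below V and G9 and KG8 (1830 to 2307 FPKM) above K and G8. In the Rubisco large chain panel VG9 stood highest, at 54.0 to 115.8 FPKM. There V and G9 (18.8 to 27.9 FPKM) also lay above KG8, K and G8 (7 to 16.9 FPKM).

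Receptors of the NB-ARC class sense pathogen effectors inside the cell. Of 23 tested, 5 were called higher in VG9 and 2 lower, beside 24.9% called among the 1770 tested genes of the supplement. Of the 23, 4 reversed, and the median difference was 0.41. In KG8, 10 were below the mid-parent value and 1 above. Summed FPKM was 130.1, 120.35 and 123.3 in VG9, 46.8 to 51.2 in V and 104.8 to 108.6 in G9. It was 68.9, 53.6 and 68.6 in KG8, 87.96 to 108.9 in K and 81.7 to 84.9 in G8. VG9 lay over both parents and KG8 under both. In Nitab4.5_0002977g0140, which also carries a mannose-binding lectin domain, V was nearly off, with 0.74, 0.65 and 0.81 FPKM, while G9 had 20.8, 20.7 and 20.1 and VG9 25.9, 24.4 and 25.2. KG8 had 14.5, 10.1 and 15.3 FPKM, K 19.4, 15.1 and 16.1 and G8 19.6, 19.1 and 19.2. The difference was 2.53 ± 0.14 (adjusted p = 2.1e-09, limma). Nitab4.5_0002616g0130 had 41.8, 37.4 and 38.9 FPKM in VG9, 3.19, 4.57 and 4.45 in V and 28.5, 27.5 and 29.2 in G9. With 20.7, 14.02 and 21.1 FPKM in KG8, 29.7, 23.1 and 25.8 in K and 30.4, 27.7 and 28.7 in G8, it was above all parental libraries in VG9 and below all in KG8, a difference of 2.29 ± 0.16 (adjusted p = 5.9e-08, limma). Another receptor, Nitab4.5_0002977g0020, from the same assembled scaffold as the first, differed by 1.71 ± 0.14 (adjusted p = 2.4e-07, limma).

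Protein kinases were the most numerous family. Of 80 tested, 4 were called higher and 1 lower, and by the adjusted p alone 32 were higher and 7 lower. The called share was below the 24.9% of the 1770 tested genes of the supplement. A leucine-rich repeat kinase gene, Nitab4.5_0000227g0020, had 143, 154 and 170.0 FPKM in VG9, 76.3, 78.5 and 83.7 in V and 45.3, 44.6 and 43.2 in G9, against 67.2, 68.3 and 67.9 in KG8 and 60.6 to 81.4 in K and G8. VG9 was above every library of its parents and KG8 was within the range of its own, and the difference was 1.49 ± 0.08 (adjusted p = 2.7e-09, limma). Calcium sensors and their partners, 22 tested, split into 3 called higher and 4 lower, of which 4 reversed. Their called share is to be set beside the same 24.9%. After median-ratio scaling the called genes were 1 higher and 4 lower. The EF-hand gene Nitab4.5_0011970g0010 had 35.9, 41.3 and 45.7 FPKM in VG9, below all of V and G9 (53.3 to 79.2). In KG8 it had 33.9, 53.9 and 30.6 FPKM, near K with 41.98, 57.4 and 45.3 and far over G8 with 5.66, 5.12 and 4.65, which gave a deviation of 1.18 and a difference of -1.85 ± 0.19 (adjusted p = 3.7e-06, limma). Another EF-hand gene, Nitab4.5_0000273g0030, rose over both parents in KG8, with 15.2, 19.3 and 13.8 FPKM against 2.62 to 8.86 in K and G8, and differed by -2.25 ± 0.35 (adjusted p = 1.6e-04, limma). Thaumatins, proteins of plant defence, gave 2 higher and 2 lower of 8. The thaumatin gene Nitab4.5_0000360g0100 had 41.4, 37.5 and 23.98 FPKM in KG8, 14.8, 14.8 and 24.6 in K, 4.13, 4.23 and 4.58 in G8 and 7.79, 5.97 and 8.39 in VG9, between 3.09, 3.03 and 3.35 in V and 20.1, 23.2 and 19.3 in G9. Its difference was -1.99 ± 0.23 (adjusted p = 1.1e-05, limma).

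Of 94 tested transcription factors of the WRKY, AP2/ERF, NAC, MYB and MADS-box families, 10 were called higher and 1 lower, which is 11.7% of them. This was a smaller share than the 24.9% called among the 1770 tested genes of the supplement. WRKY factors, regulators of defence and senescence, held 1 call among 28 tested, although 17 were higher in VG9 and none lower by the adjusted p alone, with a median difference of 0.53. They were above the mid-parent value in 22 cases in VG9 and in 17 in KG8, where the median deviation was 0.41. Summed FPKM was 281.0 to 320.1 in VG9, 106.8 to 113.4 in V and 265 to 269 in G9, and 207 to 223 in KG8, 215 to 276 in K and 103.0 to 106.4 in G8. VG9 was above both parents, while KG8 overlapped K. The called gene Nitab4.5_0000627g0060 had 0.21, 0.21 and 0.08 FPKM in V and 3.48 to 4.45 in VG9 and G9, and differed by 1.42 ± 0.14 (adjusted p = 2.4e-06, limma). AP2/ERF factors, many of which answer ethylene, gave 2 called higher of 30, with a median difference of 0.23. NAC factors gave 2 higher of 13, and MYB factors 3 higher of 14. MADS-box factors gave 2 higher and 1 lower of 9, and after median-ratio scaling 2 higher and 2 lower.

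The lower MADS-box gene was among those lost in VG9. Nitab4.5_0006437g0030 was listed at 0 in the 3 VG9 libraries, with 7.22, 5.2 and 6.26 FPKM in V, 5.09, 5.26 and 2.83 in G9 and 10.2, 8.81 and 11.7 in KG8. K had 5.92, 2.83 and 10.8 FPKM and G8 5.12, 2.15 and 8.7, so KG8 overlapped its parents, and the difference was -3.47 ± 0.45 (adjusted p = 3.0e-05, limma). Of the MYB genes, Nitab4.5_0004757g0010 reversed, with 11.7, 14.8 and 18 FPKM in VG9, 5.09, 7.75 and 3.81 in KG8 and a difference of 1.93 ± 0.39 (adjusted p = 0.0014, limma). Its levels overlapped those of the parents in both crosses.

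Auxin is the hormone that directs growth by its transport between cells. Of 10 tested genes of auxin transport and response, 3 were called higher in VG9 and none lower, a share close to the 24.9% of the supplement's tested genes. The median difference was 0.70 and the median deviation in KG8 was -0.31. An auxin efflux carrier, Nitab4.5_0007384g0040, had 7.81, 6.89 and 7 FPKM in VG9, 0.05, 0 and 0.25 in V and 0.47, 0.37 and 0.61 in G9. It had 3.14, 1.99 and 1.9 FPKM in KG8, 6.17, 5.28 and 6.18 in K and 0, 0 and 0.05 in G8. VG9 was far above both parents, whereas KG8 lay between K, which expressed the gene, and G8, which hardly did. The difference was 2.37 ± 0.16 (adjusted p = 3.1e-08, limma). Its neighbour by identifier, the efflux carrier Nitab4.5_0007384g0050, gave 1.51 ± 0.17 (adjusted p = 8.8e-06, limma) on the same pattern, with 2.94, 2.33 and 2.02 FPKM in VG9. The AUX/IAA gene Nitab4.5_0007553g0010, a repressor of auxin response, was listed at 0 in V and differed by 1.24 ± 0.23 (adjusted p = 8.2e-04, limma). That call was lost without VG9 replicate 1, where the difference was 0.94. It was lost too with the arithmetic mid-parent value taken per replicate number, where the difference was 0.34 (0.40 from genotype means).

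Cytochromes P450, oxidases of many plant products, gave 7 called higher and 1 lower of 32, with a median difference of 0.57. The called share was near the 24.9% of the 1770 tested genes of the supplement. Nitab4.5_0004799g0010 had 7.84, 7.44 and 8.46 FPKM in VG9, 2.86, 3.87 and 3.74 in V and 1.97, 1.93 and 2.46 in G9, and 1.27, 2.24 and 2.2 in KG8, 3.97, 3.38 and 3.28 in K and 3.11, 3.5 and 2.99 in G8. VG9 lay over all its parents' libraries and KG8 under all of its own, a difference of 1.86 ± 0.16 (adjusted p = 4.8e-07, limma). Another P450 gene, Nitab4.5_0015910g0010, reversed too, with 10.5, 9.37 and 7.72 FPKM in VG9, 0.48, 0.66 and 1.23 in KG8 and a difference of 2.08 ± 0.23 (adjusted p = 6.8e-06, limma). Terpene synthases gave 1 higher and 1 lower of 7, a share near 24.9% as well. In the lower one, Nitab4.5_0009618g0010, VG9 had 6.52, 5.06 and 8.67 FPKM, V 16.9, 12.3 and 15.7 and G9 11.9, 12.8 and 13.4. KG8 had 39.4, 39.7 and 34.3 FPKM, K 16.1, 19.1 and 23.4 and G8 19.7, 18.2 and 18.7, all above the parents, so the 2 hybrids stood apart on opposite sides. The deviations were -0.95 and 0.95 and the difference was -1.90 ± 0.19 (adjusted p = 1.9e-06, limma). UDP-glycosyltransferases, which attach sugars to small molecules, gave 1 higher of 12.

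Lipid transfer proteins, small secreted proteins of the cell surface, gave 2 higher and 3 lower of 15, with a median difference of -0.78 and a median deviation of -0.78 in KG8. Nitab4.5_0000109g0350 had 139, 183 and 136 FPKM in VG9, 209 to 333 in V and G9, 308, 339 and 276 in KG8 and 192 to 245 in K and G8. It reversed, with no overlap in either cross and a difference of -1.31 ± 0.11 (adjusted p = 4.9e-07, limma). Nitab4.5_0005785g0010 was the gene that was off in KG8, listed at 0 in KG8 and in K with 45.96, 12.7 and 23.3 FPKM in G8, and its difference was 2.05 ± 0.37 (adjusted p = 6.5e-04, limma). Proteinase inhibitors, which block the digestive enzymes of insects, gave 1 higher of 4, with a median difference of 0.55. The called one, the potato inhibitor I gene Nitab4.5_0003154g0030, had a mean of 28.7 FPKM in VG9, 0.727 in V and 17.97 in G9, with a difference of 2.67 ± 0.43 (adjusted p = 2.2e-04, limma). Phloem protein 2 genes gave 2 higher and 1 lower of 7. The lower one, Nitab4.5_0000767g0010, had 101, 95.6 and 103 FPKM in V, at most 0.61 in VG9 and G9, and 88.5 to 129.4 in the other cross, so VG9 resembled G9 alone and the difference was -3.03 ± 0.13 (adjusted p = 8.0e-11, limma). Chaperones gave 1 higher and 1 lower of 13, sugar metabolism and transport 1 higher and 1 lower of 14, peroxidases 1 lower of 10, and cellulose synthases no call among 5 tested, with 1 of these 5 higher by the adjusted p alone. The higher sugar transporter, Nitab4.5_0002149g0010, fell just under the limit without KG8 replicate 1 (0.99) or KG8 replicate 2 (1.00 after rounding) and after median-ratio scaling (0.94). The lower peroxidase, Nitab4.5_0000038g0180, fell just under it without VG9 replicate 1 (-0.99).

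Transposases of the En/Spm class, which move DNA segments from place to place, had the highest median of any family. The family was drawn from genes called in VG9 against its parents, so this rank is no independent evidence. Of 7 tested, 6 were called higher and 1 lower, with a median difference of 1.98 and a median deviation of -0.04 in KG8. Summed FPKM was 51.1, 48.0 and 43.4 in VG9, 16.5 to 21.1 in V and 13.0 to 14.1 in G9. It was 27.5 to 28.6 in KG8, 20.6 to 25.3 in K and 37.8 to 39.4 in G8. VG9 was therefore over both parents and KG8 between its own. Nitab4.5_0002137g0170 had 4.55, 3.27 and 4.58 FPKM in VG9 and at most 0.28 in every other library, a difference of 2.27 ± 0.16 (adjusted p = 6.8e-08, limma). This gene passed the filter on average FPKM through VG9 alone. Nitab4.5_0000002g0110 had 18.1, 14.8 and 14.6 FPKM in VG9 and at most 0.46 in V and G9, but 5.55, 5.75 and 7.06 in KG8 and 14.6, 14.96 and 14.3 in G8, and differed by 2.99 ± 0.13 (adjusted p = 1.0e-10, limma). Nitab4.5_0000008g0430 was on in KG8, K and G8 with 8.57 to 13.5 FPKM, on in VG9 with 10.1, 7.72 and 5.88, and off in V and G9, a difference of 3.09 ± 0.18 (adjusted p = 3.7e-09, limma). Nitab4.5_0000002g0110 and Nitab4.5_0000008g0430 are among the 9 genes that were on in VG9 and off in V and G9. Transposase genes occur in many similar copies, so single values are uncertain.

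**Figure D5:**
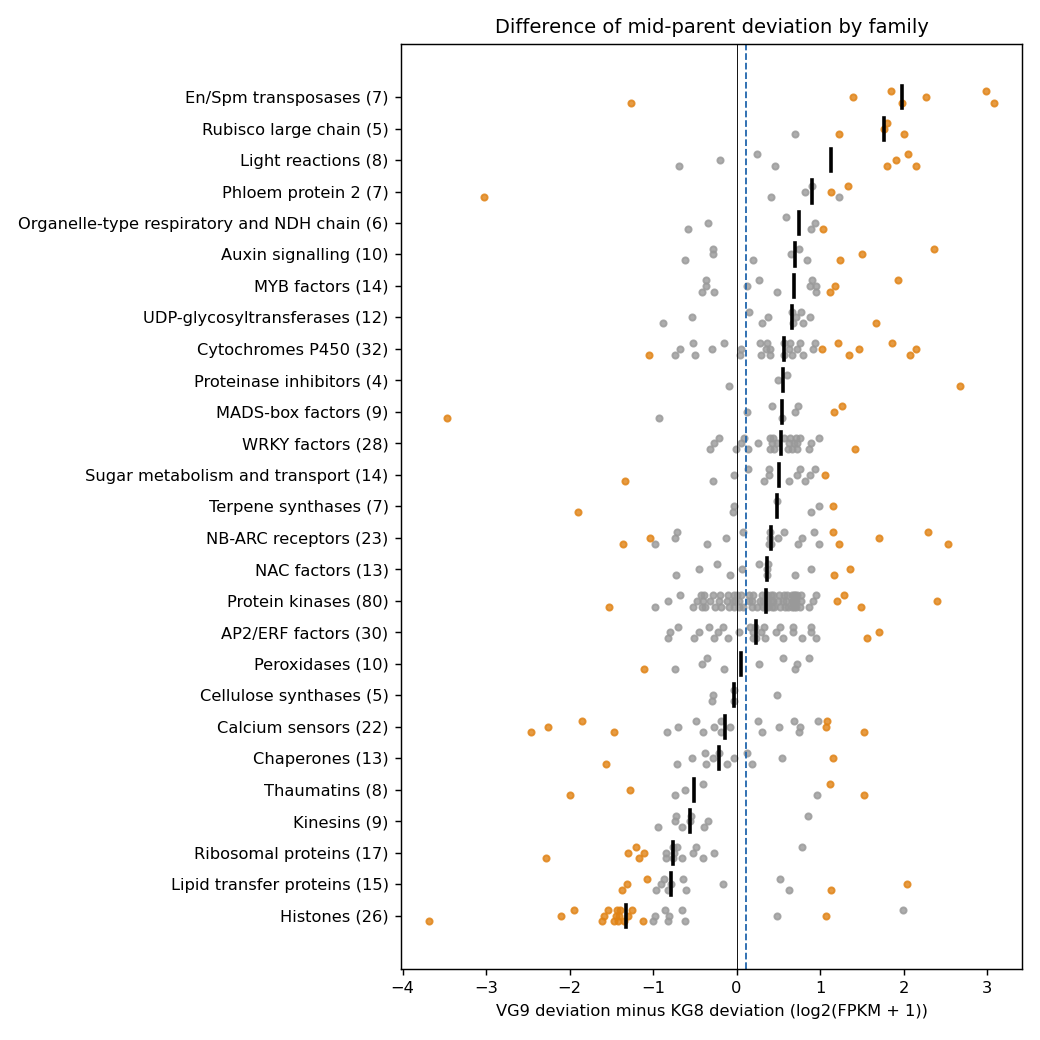
Difference of mid-parent deviation (VG9 minus KG8, log2(FPKM + 1)) of each tested member of 27 families, with the number of members in parentheses, called genes in orange, others in grey, the family median as a black bar and the median of all tested genes (0.12) as a dashed line. Medians run from -1.32 for histones to 1.98 for En/Spm transposases.

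Single genes with the clearest reversals were taken by the smaller of their 2 deviations. Upward in VG9 and downward in KG8, the gene Nitab4.5_0001881g0050, without a description, had 13.2, 8.92 and 6.1 FPKM in VG9, 1.85 to 5.89 in V and G9, 1.45, 2.93 and 1.12 in KG8 and 2.27 to 7.60 in K and G8. Its deviations were 1.09 and -1.02, a difference of 2.10 ± 0.40 (adjusted p = 8.3e-04, limma). Nitab4.5_0000116g0500, also without a description, had 73.1, 52.99 and 53.5 FPKM in VG9 and 28.1 to 33.1 in its parents, against 20.2, 16.2 and 21.3 in KG8 and 27.6 to 47.9 in K and G8. Neither hybrid overlapped its parents, and the difference was 1.86 ± 0.14 (adjusted p = 1.2e-07, limma). In Nitab4.5_0000960g0030 the parents were themselves unequal, with 14.5, 14.2 and 13.5 FPKM in V and 1.1, 1.54 and 1.98 in G9, and VG9 at 17.7, 13.1 and 14.5 matched V. KG8, at 7.24, 5.37 and 6.75 FPKM, lay under both K and G8, which gave a difference of 2.29 ± 0.15 (adjusted p = 2.1e-08, limma). An alcohol dehydrogenase superfamily gene, Nitab4.5_0000402g0170, was on in VG9, at 8.15, 7.1 and 5.34 FPKM, and at most 0.19 in V and G9. G8 had 2.56, 3.17 and 4.55 FPKM while KG8 and K had at most 0.19, so the negative deviation of KG8 is that of a hybrid like its silent parent, and the difference was 3.70 ± 0.19 (adjusted p = 9.9e-10, limma). A GRF-type zinc finger gene, Nitab4.5_0006600g0020, had 12.8, 10.7 and 15.5 FPKM in VG9, 5.74, 5.76 and 6.1 in V and 0 in all G9 libraries, was listed at 0 in KG8 and K, and differed by 3.02 ± 0.13 (adjusted p = 1.1e-10, limma). A DUF506 gene, Nitab4.5_0000908g0100, gave 1.57 ± 0.19 (adjusted p = 1.9e-05, limma) on levels from 0.51 to 5.04 FPKM.

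Downward in VG9 and upward in KG8, the first gene by this measure was Nitab4.5_0004321g0010, a gene without a description whose replicates were uneven. It was listed at 0 in all 3 VG9 libraries and in V replicate 3, with 95.4, 50.1 and 93.4 FPKM in KG8 and 4.91 to 38.2 in K and G8, and its difference was -4.02 ± 0.97 (adjusted p = 0.005, limma). A GDSL lipase gene, of a family of secreted esterases, was steadier. Nitab4.5_0007834g0040 had 2.96, 3.1 and 2.69 FPKM in VG9, 5.39, 6.07 and 5.54 in V and 27.7, 26.5 and 27.2 in G9. It had 12.8, 11.4 and 19.9 FPKM in KG8, 6.18, 3.24 and 4 in K and 7.99, 7.6 and 8.79 in G8. VG9 was under both parents and KG8 over both, with deviations of -1.81 and 1.13 and a difference of -2.94 ± 0.21 (adjusted p = 6.2e-08, limma). An organ-specific protein gene, Nitab4.5_0002102g0030, had 0, 0.14 and 0 FPKM in VG9, 0.67 to 2.63 in V and G9, 2.69, 1.93 and 3.8 in KG8 and at most 1.05 in K and G8, with a difference of -2.60 ± 0.31 (adjusted p = 1.7e-05, limma). A plastocyanin-like cupredoxin gene, of a family of copper proteins, had no overlap in either cross. Nitab4.5_0003563g0020 had 2.7, 2.83 and 2.19 FPKM in VG9 and 5.84 to 12.7 in its parents, 10.8, 13.3 and 8.85 in KG8 and 3.35 to 6.94 in K and G8, and a difference of -2.33 ± 0.21 (adjusted p = 8.9e-07, limma). Another aminotransferase gene described as DapL, Nitab4.5_0008969g0020, was nearly off in VG9, as Nitab4.5_0000302g0060 was. It had 0.03, 0.16 and 0.13 FPKM in VG9 and 2.66 to 5.07 in V and G9. KG8, at 6.11, 5.97 and 7.28 FPKM, was between 10.8, 7.64 and 8.58 in K and 0.25, 0.26 and 0.43 in G8 and above their mean on the log scale, and the difference was -3.11 ± 0.16 (adjusted p = 9.1e-10, limma). Last, Nitab4.5_0000212g0010, without a description, had 199.8, 199 and 204 FPKM in G9 and at most 0.67 in VG9 and V, and 239 to 462 in the other cross, so its difference of -4.47 ± 0.15 (adjusted p = 9.3e-12, limma) came from a hybrid at the level of its silent parent.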

How the data were processed

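Leaf RNA of 6 tobacco genotypes was sequenced with 3 libraries each, and groups came from the genotype in the sample labels. The authors removed low-quality reads, aligned the rest to the K326 genome and deposited FPKM per gene and library, to 2 decimals. The submitters' processing notes name HISAT2, StringTie and RSEM, with versions not given in the sources used here. Since FPKM holds no count, the depth behind each value is unknown and precision was taken from the spread between libraries, which may be partly technical. The authors' own fold changes and p values were not used, nor were gene lists drawn in their figures.

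Genes whose average FPKM reached 1 in 1 or more genotypes were analysed on log2(FPKM + 1) with limma 3.58.1 in R 4.3.3, with a mean per genotype over all 18 libraries, contrasts, eBayes with a trend, two-sided tests and Benjamini-Hochberg adjustment over 36573 genes. The study tested no such contrast. With 3 libraries against 3, an exact permutation test of a single gene could not go below p = 0.1. Genes named were drawn from several lists, starting with the 10 of the primer table. Next came the 5 highest and 5 lowest differences of all genes and the 6 highest and 6 lowest with a description. Further lists held the 4 reversing genes per direction with the largest smaller deviation, and the same among described genes. The last held up to 3 called members of each of 27 families found by keywords. Not every listed gene is described in the text. From 4 keyword lists 14 genes were left out after their values were seen, because their descriptions name another protein, such as a peptidase with an inhibitor-like propeptide. Uncalled photosystem genes, 2 genes whose sign turned with the arithmetic mean, 1 of them an H2B gene, and the potato inhibitor I gene were added after their values were seen. Members and lists were chosen with earlier results of these data known. Of the gene identifiers, 0 matched the RefSeq table at hand, so no genomic position is given. The fit was tested on simulated data. Alternatives were the pseudocount, filter, scaling, arithmetic mid-parent value, weights per genotype, trend, replicate block, thresholds and each library left out. The count without genes on or off in a hybrid was chosen after seeing the data. Python 3.11.15, NumPy 2.4.6 and matplotlib 3.10.9 drew the figures.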

Additional observations from a re-analysis of the deposited data

Results flagged for a closer look

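The 2 crosses differed in the effect of the hybrid, by the test of the difference itself, in 1090 genes, with 563 higher and 527 lower in VG9 against its mid-parent value than in KG8. Of these, 200 were above the parental mean in VG9 and below it in KG8, and 204 were the other way round. Among the genes named, the reversing ones that were higher in VG9 had these differences on the log2 scale: Nitab4.5_0000402g0170 (3.70), Nitab4.5_0006600g0020 (3.02), Nitab4.5_0002977g0140 (2.53), Nitab4.5_0002616g0130 (2.29), Nitab4.5_0000960g0030 (2.29), Nitab4.5_0001881g0050 (2.10), Nitab4.5_0015910g0010 (2.08), Nitab4.5_0004757g0010 (1.93), Nitab4.5_0004799g0010 (1.86), Nitab4.5_0000116g0500 (1.86), Nitab4.5_0002977g0020 (1.71), Nitab4.5_0000908g0100 (1.57), Nitab4.5_0000627g0060 (1.42), Nitab4.5_0007553g0010 (1.24) and Nitab4.5_0000272g0060 (1.18). The reversing ones that were lower in VG9 were Nitab4.5_0001239g0110 (-1.27), Nitab4.5_0002158g0230 (-1.30), Nitab4.5_0000540g0120 (-1.31), Nitab4.5_0000109g0350 (-1.31), Nitab4.5_0011970g0010 (-1.85), Nitab4.5_0009618g0010 (-1.90), Nitab4.5_0001831g0110 (-1.94), Nitab4.5_0000140g0010 (-2.10), Nitab4.5_0000273g0030 (-2.25), Nitab4.5_0000138g0020 (-2.28), Nitab4.5_0003563g0020 (-2.33), Nitab4.5_0005936g0010 (-2.47), Nitab4.5_0002102g0030 (-2.60), Nitab4.5_0007834g0040 (-2.94), Nitab4.5_0008969g0020 (-3.11), Nitab4.5_0006437g0030 (-3.47), Nitab4.5_0004321g0010 (-4.02) and Nitab4.5_0000212g0010 (-4.47). Groups of 3 libraries are too small for a search of single outlying libraries. The explanations were not tested.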

How the results depend on the processing

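The number of called genes (1090, with 563 higher and 527 lower in VG9, and reversals of 0.547% up and 0.558% down in VG9, as shares of the 36573 genes) stayed within 1.5 times its value under no filter, a minimum of 5 FPKM, equal totals, weights per genotype, no trend and the arithmetic mid-parent value. Leaving out each library in turn gave 1069 to 1211 calls, 548 to 643 higher, 506 to 568 lower, with reversals of 0.399% to 0.618% up and 0.503% to 0.621% down in VG9. A pseudocount of 0.1 gave 2084 calls, 1095 higher and 989 lower, with 0.872% reversals up in VG9. Median-ratio scaling gave reversals of 0.26% and 0.891%, and quantile normalization 0.317% up in VG9. Without a limit on size there were 11810, 8278 and 3532 calls and reversals of 3.93% and 1.71%, and at a limit of 2 there were 146, 75 and 71 calls and reversals of 0.0383% and 0.052%. At an adjusted p under 0.01 the reversals were 0.331% and 0.347%. The causes were not tested, except that limits of size or p act by construction. With the replicate number as a block there were 1088 calls (563 higher, 525 lower, reversals of 0.558% each way), of which 1079 were shared. Libraries with the same number did not deviate together, with correlations from -0.14 to 0.21 and 2 of 45 pairs over 0.1. The main fit therefore did not pair the samples by number. The arithmetic mid-parent alternative of this section did, matching each hybrid library with the parental libraries of the same number. NtOGDH reversed in sign with quantile normalization (-0.0026). FPKM holds no depth, so the reliability of low genes cannot be judged beyond the spread of replicates.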

Other observations

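Called genes had a called neighbour by identifier on the assembled scaffolds more often than uncalled genes did, though most had none in the same direction. Of 959 called genes with a tested neighbour by identifier, 116 (12.1%) had a neighbour called in the same direction, against 749 of 31889 uncalled genes (2.35%) with a neighbour called in the direction of their own difference. Scaffold Nitab4.5_0001198 held 9 genes called higher of 26 tested, Nitab4.5_0001526 held 6 of 13 and Nitab4.5_0006562 held 6 of 7. Scaffold Nitab4.5_0000826 held 7 genes called lower of 22. Neighbouring genes can be copies of each other and are not independent, so these shares are a description.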
